A study of Drosophila melanogaster with 150 samples.

Results

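This section describes 20 probe sets, of 18769 on the array, whose signal over 150 arrays of adult male Drosophila melanogaster fell into a large high class and a smaller low class. For every probe set the 150 values were sorted and divided where the within-group sum of squares was least, with at least 20 arrays on each side. A probe set was kept where its standard deviation was above 0.3, where more than 0.75 of its variance lay between the groups, and where 20 to 50 arrays were in the low group. Metallothionein, detoxification, odorant binding, chemoreceptor, ribosomal, growth factor and egg protein genes and ebony were left out by symbol, which removed 1 probe set. Of the 20 members, 16 carried a single gene symbol, 1 carried several symbols and 3 carried none, and the last 4 are given by probe set name. The mirror rule, with the high class rare, kept 99 probe sets, and 131 had balanced classes. The members were thus chosen by their own signal values on these arrays, so every difference between a member's low and high arrays is a description without a test.

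The flies came from 75 recombinant inbred lines, named roo lines in the labels, and each line has an array for control food and an array for lead food. Lead acetate was given at 250 uM in lead food, and control flies received sodium acetate at 250 uM instead, so both diets carried acetate. Each array was a pool of 65 male progeny aged 5 to 10 days from a vial, reared at 25 degrees C, and RNA was taken from whole flies. A group is therefore 75 arrays of different lines, with no repeat of a line on a diet, and a lower signal from fewer cells of a type cannot be told apart from less RNA per cell.

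A recombinant inbred line carries a fixed mosaic of the chromosomes of its founders. Where founders differ at or near a gene, lines can fall into classes of its expression, and genes close together on a chromosome are usually inherited together. The array reads RNA through short probes built to a reference sequence. Of the members, Map205 encodes a microtubule-associated protein that binds the mitotic kinase Polo, P5CDh2 encodes a dehydrogenase of proline breakdown, and CG10527 encodes a protein similar to the farnesoic acid methyltransferases of crustaceans.

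Array medians lay between 5.29 and 5.55, and each array correlated with the rest at a median between 0.954 and 0.987. The 10 measured accessory gland genes, which mark adult males, had a log2 sum of 14.19 to 15.81 over the arrays. The 11 measured yolk and eggshell genes, which mark females, had a median sum of 7.71 under the control label and 7.74 under the lead label. The sum was above 10 on 22 arrays, 10 labelled control and 12 labelled lead, and reached 13.56 and 14.44. After removal of the diet means, arrays of the same labelled line correlated at a mean of 0.0668 and arrays of different lines at 0.000471. The diet groups are therefore named by their labels only.

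The 3 members with the clearest classes, by the share of variance between classes, were Map205, CG10527 and P5CDh2. Map205 ranged from 2.54 through a median of 9.27 to 10.29 under the control label, and from 2.43 through 9.26 to 9.89 under the lead label. A total of 21 arrays lay at or below 5.34 and the other 129 at or above 7.30, with no array in the interval of 1.96 between them. The low arrays averaged 3.21 ± 0.77 (SD, n = 21) and the high arrays 9.27 ± 0.40 (SD, n = 129). That difference of 6.06 was the largest among the members. Both diets held low arrays, 11 labelled control and 10 labelled lead, so the groups overlapped over their whole range.

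CG10527 had 38 low arrays between 4.43 and 5.83 and 112 high arrays between 7.05 and 9.53, and no array lay in the interval of 1.23 between the classes. Under the control label it ran from 4.62 through a median of 8.62 to 9.46, and under the lead label from 4.43 through 8.66 to 9.53. Its class means were 5.05 ± 0.34 (SD, n = 38) and 8.70 ± 0.42 (SD, n = 112). P5CDh2 ran from 5.05 through 8.71 to 9.50 under the control label and from 4.82 through 8.56 to 9.50 under the lead label. Its 33 low arrays averaged 5.48 ± 0.43 and its 117 high arrays 8.76 ± 0.41, a difference of 3.27. The interval between its classes was narrower, 0.43.

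**Figure D1:**
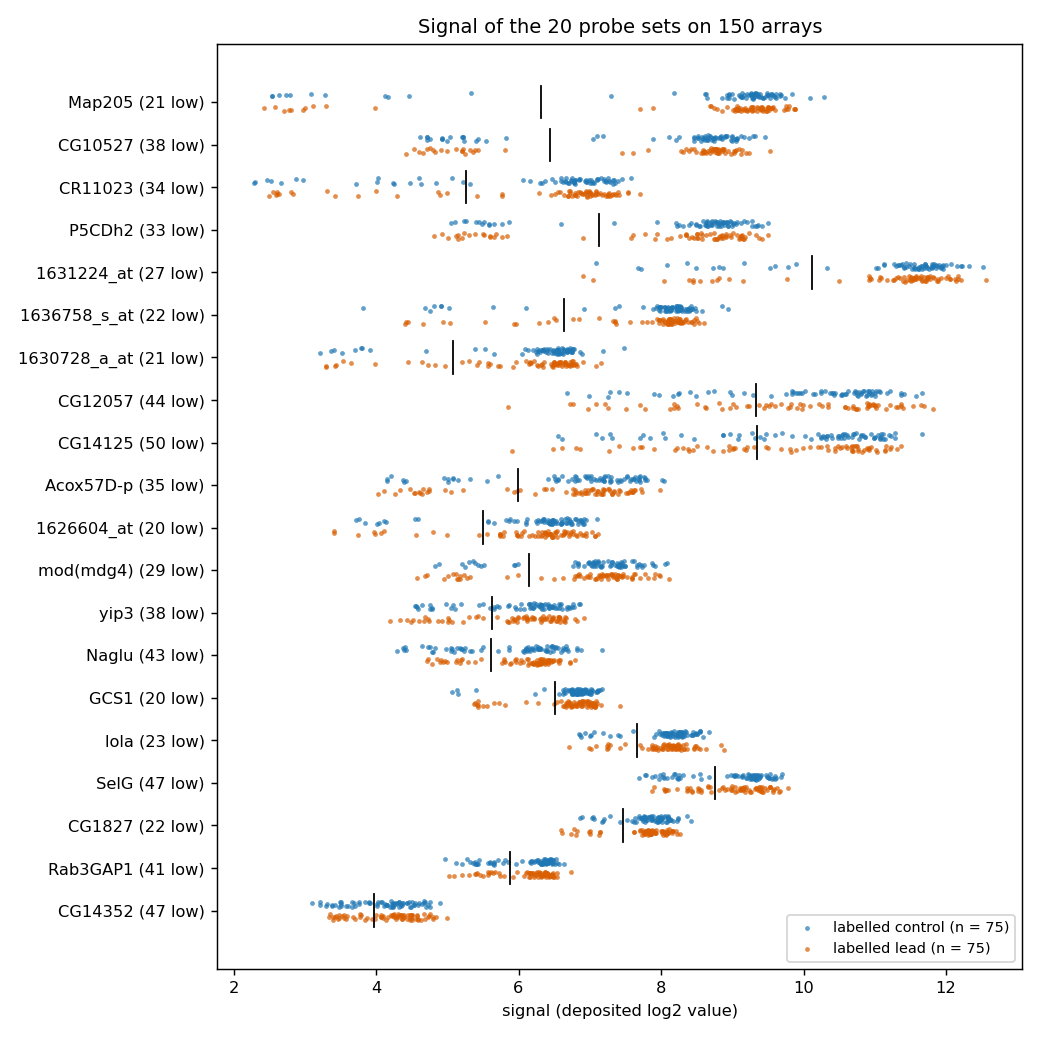
Signal of each of the 20 probe sets (rows, ordered by the difference between class means) on the 75 arrays labelled control and the 75 labelled lead, 1 point per array, with the cut between low and high class as a vertical line and the number of low arrays after the name. Map205 has 21 arrays far below the rest, whereas CG12057 and CG14125 are among the 8 members with an empty interval under 0.1 at the cut.

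The classes were less distinct in most other members. Over the 20 members the interval between the highest low array and the lowest high array had a median of 0.11, was above 0.5 in Map205 and CG10527, and was under 0.1 in 8. The share of variance between classes ran from 0.751 to 0.953, against a median of 0.629 over all probe sets, each at its own best cut. When the cut was placed at the widest gap instead, 9 members kept the same classes. In CG14125 the low class then fell from 50 to 22 arrays and in CG12057 from 44 to 26.

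A low class was also not always near the bottom of the scale. The low class mean was below the median array median of 5.41 in 11 members and above it in 9. It was lowest in Map205, at 3.21, and highest in the unnamed probe set 1631224_at, at 8.59 against 11.63 in its high class. Probes differ in brightness, so this landmark orders no genes. High minus low differences were above 2 in 12 members, between 1 and 2 in 5 and below 1 in 3.

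At the edges of the rule, CG14352 and CG12057 had variance shares of 0.751 and 0.752 just inside, and CG18585 and Alp10 had 0.7473 and 0.7469 just outside. In size of the low class CG14125 with 50 arrays and CG14352 with 47 were just inside, and CG14877 with 53 and Pcd with 54 just outside. CG1827, with an SD of 0.376, and Rab3GAP1, with 0.416, stood closest above the SD limit, and CG9890 with 0.283 was the single probe set that failed it alone. GCS1 and 1626604_at had 20 low arrays, the fewest the rule allows.

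Several members encode enzymes of lysosome, peroxisome and endoplasmic reticulum. Naglu, the lysosomal N-acetylglucosaminidase that degrades heparan sulfate, had 43 low arrays at 4.98 ± 0.31 and 107 high arrays at 6.32 ± 0.26. CG1827, similar to the lysosomal aspartylglucosaminidase of mammals, had 22 low arrays between 6.59 and 7.42 and 128 high arrays between 7.52 and 8.42. Both classes of CG1827 thus lay above the array medians.

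Acox57D-p, a peroxisomal acyl-CoA oxidase that starts the oxidation of long fatty acids, had 35 low arrays at 4.82 ± 0.54 against 7.18 ± 0.41 on 115. GCS1, the glucosidase that trims the first sugar from N-glycans, had 20 low arrays at 5.65 ± 0.43 against 6.88 ± 0.15 on 130. GCS1 was low on 6 arrays labelled control and 14 labelled lead. SelG, a small selenoprotein gene, had 47 low arrays at 8.25 ± 0.27 against 9.29 ± 0.21 on 103.

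Among regulators the members were lola, a transcription factor gene of axon guidance, and mod(mdg4), a gene of chromatin insulators. Both encode BTB-domain proteins and make many isoforms through alternative 3' exons. The lola probe set 1628946_at had 23 low arrays at 7.15 ± 0.23 and 127 high arrays at 8.20 ± 0.21. The mod(mdg4) probe set 1637723_at had 29 low arrays at 5.27 ± 0.39 and 121 high arrays at 7.30 ± 0.34.

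These were the 2 member genes with other probe sets on the array, 14 for lola and 21 for mod(mdg4), and the low class was not shared by most of them. Between the arrays low and high in the lola member, 2 of the 14 other lola probe sets had more than 0.25 of their variance and 8 had less than 0.05. The 2 were higher, not lower, on the arrays low in the member. Probe set 1627324_at averaged 4.91 against 4.26, and 1624729_at averaged 6.87 against 6.46. Over all 14 the low minus high difference ran from -0.37 to 0.66, and 6 were negative.

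In mod(mdg4) 3 of the 21 other probe sets passed 0.25 and 10 were under 0.05. Probe set 1639006_at moved opposite to the member, at 4.71 on its low arrays and 3.77 on its high arrays. The other pair moved with it, 1627953_at at 4.35 against 4.95 and 1640554_at at 4.19 against 4.60. For both genes the low class was thus seen in a single probe set at this size, and the other 14 named members had no second probe set to compare.

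The remaining named members were Rab3GAP1, CG14352, CR11023, yip3, CG12057 and CG14125. Rab3GAP1, the catalytic subunit of the complex that inactivates the vesicle GTPase Rab3, had 41 low arrays at 5.49 ± 0.22 and 109 high arrays at 6.34 ± 0.14. Its neighbour CG14352 had the smallest class difference, 0.82, from 3.57 ± 0.21 on 47 arrays to 4.39 ± 0.23 on 103. CR11023, listed as a pseudogene, averaged 3.58 ± 0.98 on 34 arrays and 6.90 ± 0.40 on 116, and its low values were the most spread of all members. The yip3 probe set averaged 4.90 ± 0.36 on 38 arrays and 6.32 ± 0.29 on 112.

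The first comparison asked whether the classes followed the diet. Over the members 312 low values fell on arrays labelled control and 343 on arrays labelled lead, with more on lead in 12 members and fewer in 8. In limma with line as a block, 0 of the 20 members passed an adjusted p of 0.05 between the labelled diets, as did 0 of all 18769 probe sets (0%). At an unadjusted p under 0.05 there were 0 members, against 2.61% of all probe sets. Of the members 14 had a negative difference, lead minus control, against 47.4% of all probe sets, and the median was -0.084 against 0.0020 over all. Several members share their low arrays, so these signs are not independent of each other. The members also vary more, with a median SD of 0.93 against 0.22 over all probe sets. Neither the signs nor the median was tested.

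Map205 differed between the diets by 0.018, with a 95% interval from -0.68 to 0.72, CG10527 by -0.083 (-0.56 to 0.40) and P5CDh2 by -0.29 (-0.74 to 0.16). The members of smallest p were CG14125 at -0.31 (-0.72 to 0.11), Acox57D-p at -0.24 (-0.57 to 0.10) and GCS1 at -0.11 (-0.26 to 0.05), each with an adjusted p of 1.00 in limma after rounding. Each of these intervals includes 0.

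The second comparison asked whether the arrays of a labelled line shared their class. For Map205, 1 line was low on both arrays, 10 only on the array labelled control, 9 only on the array labelled lead and 55 on neither. From the numbers of low arrays alone 1.47 lines would be low on both. CG10527 was low on both arrays in 7 lines, against 4.80 from the numbers alone, and P5CDh2 in 4 against 3.55. The unnamed 1631224_at was low on 14 arrays labelled control and 13 labelled lead and never on both arrays of a line, against 2.43.

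Summed over the members there were 82 such cases, against 76.9 from the numbers alone. The arrays of a labelled line had the same class in 67.3% of members on average (SD 15.2 over 75 lines), and arrays of different lines in 66.6%. With 75 lead arrays to match, unrelated arrays would give few matches within a line. No array labelled control had its most similar lead array, by these classes, in its own labelled line. Its most similar lead array shared a median of 95% of the classes, and in 50 of 75 cases a lead array of another line shared 19 or more of the 20, which arrays with few low members reach easily. The number of low members per array ran from 0 to 14, with a median of 4.

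The line effect in limma was past the threshold in 0 of the 20 members, against 2 probe sets or 0.0107% of all. At an unadjusted p under 0.05 there were 2 members, against 12.3% of all probe sets. These were CG10527, with a correlation between its control and lead values over the 75 lines of r = 0.17 (adjusted p = 0.401 in limma), and CG1827 with r = 0.18 (adjusted p = 0.402). CG12057 came next at r = 0.12 (adjusted p = 0.478). For Map205 r was -0.028 and for P5CDh2 0.015, and the members' median was 0.0052 against 0.057 over all probe sets. As the values of a member fall into classes, the counts of lines above describe it better than r.

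**Figure D2:**
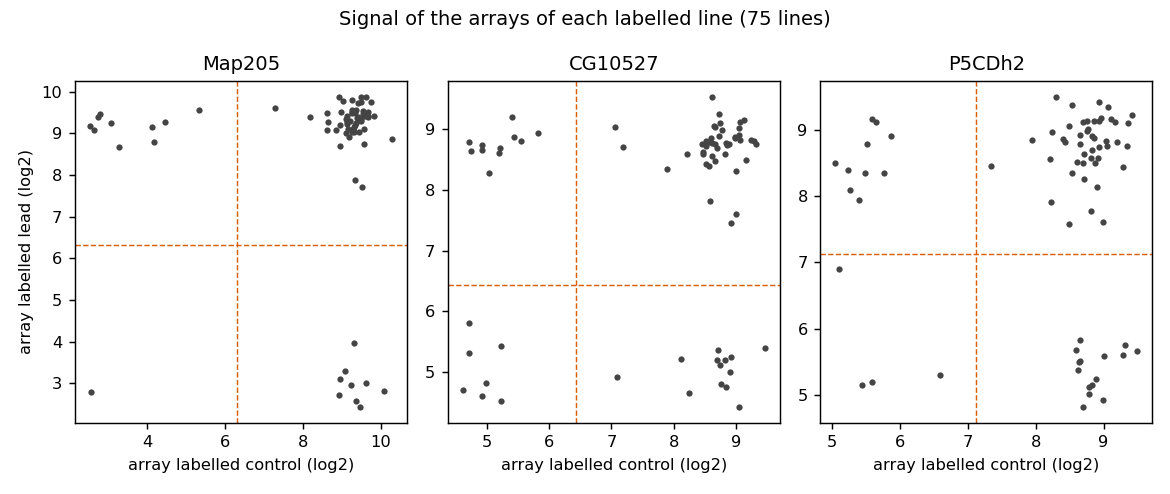
Signal on the array labelled lead (y, log2) against the array labelled control (x, log2) of the same labelled line for Map205, CG10527 and P5CDh2, 1 point per line (75 lines), with the class cuts as dashed lines. Most lines with a low array in 1 diet have a high array in the other, and 1, 7 and 4 lines lie in the lower left corners.

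By their numbers in the titles, 57 lines belong to a series from 1 to 100 and 18 to a series above 200. Low arrays were a larger share of the lines above 200 in 17 members and a smaller share in 3. CG10527 was low on 16 of 36 arrays of the lines above 200 (44.4%) and on 22 of 114 of the others (19.3%). Its mean level differed by -0.97 (95% interval -1.61 to -0.34), but in limma over all probe sets its adjusted p was 0.983. Rab3GAP1 differed by -0.18 (-0.33 to -0.03) and CG14352 by -0.18 (-0.34 to -0.02), with the same adjusted p of 0.983.

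No member passed the threshold between the line number series, nor did any probe set (0%), and at an unadjusted p under 0.05 there were 3 members against 3.64% of all probe sets. Of the members 16 were lower in the lines above 200, against 43.6% of all probe sets, but several of them share their low arrays, as given next. Map205 went the other way, low on 3 of 36 and on 18 of 114 arrays. The response to the labelled diet differed between the line series in 0 members (0% of all probe sets). At an unadjusted p under 0.05 there were again 0, against 2.04% of all.

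The low arrays of members close together on a chromosome were largely the same arrays. Rab3GAP1 and CG14352, adjacent in the gene order on arm 2L, were both low on 38 arrays, which is 92.7% of the low class of Rab3GAP1 and 80.9% of that of CG14352. CR11023, the first gene of arm 2L in that order and 242 genes away from Rab3GAP1, shared 26 of its 34 low arrays with Rab3GAP1 and 28 with CG14352. CG10527 and Acox57D-p, with 74 genes between them on 2R, were both low on 30 arrays, 78.9% and 85.7% of their classes. On 3R P5CDh2 and mod(mdg4), with 73 genes between, shared 24 arrays, 72.7% and 82.8% of their classes.

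The shared part was smaller for members farther apart. In the 5 same-arm pairs with at most 200 genes between, the shared arrays were a median of 82.8% of the smaller class. In the 17 same-arm pairs farther apart the median was 29.5%, and in the 98 pairs on different arms it was 32.1%. Of those 98 pairs 2 passed 60%, CG12057 with CG14125 and lola with SelG. Of the 5 close pairs, 4 passed 60%, and the pair of GCS1 and SelG on X, with 91 genes between, shared 3 arrays or 15% of the smaller class. These are shares of samples in common, and the pairs are not independent of each other.

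**Figure D3:**
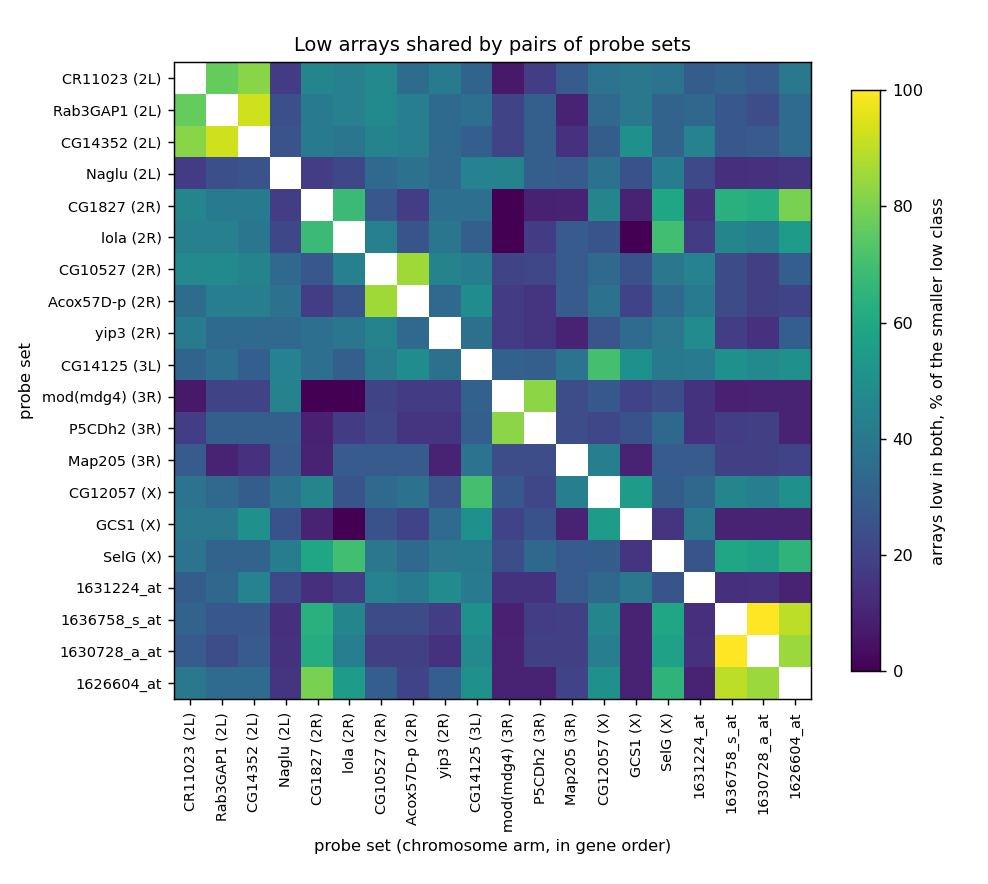
Arrays low in both members of each pair, as a percentage of the smaller low class (colour), for the 20 members in gene order along the chromosome arms, with the 4 probe sets without a single symbol last. Bright blocks join CR11023, Rab3GAP1 and CG14352 on 2L, CG10527 and Acox57D-p on 2R, and P5CDh2 and mod(mdg4) on 3R.

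Probe sets outside the 20 members were compared with the members' classes by place. A probe set was counted as alike to a member where more than 0.25 of its variance lay between the member's low and high arrays. For the 13 placed members other than CG12057, CG14125 and SelG, and with the 20 members left out, 120 distinct placed probe sets were alike to at least 1 of them. Of these 70 lay within 100 genes of a member to which they were alike, 42 only farther along the arm and 8 only on other arms. Of the 13 members, 11 had none on another arm. When the 8 lines with the least correlated arrays were dropped, the numbers near a member and only on other arms were 77 and 8, and with the cut at the widest gap 63 and 7. Close members share low arrays, so their alike probe sets overlap, as with Or22b for both Rab3GAP1 and CG14352.

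The probe sets most alike to Map205 were Ir100a, an ionotropic receptor gene 12 genes away, CG12054 and Pcd, a pterin dehydratase gene, with shares of 0.324, 0.209 and 0.197. All were on 3R, where Map205 is the last of 4226 genes in the order used. Ir100a was higher on the arrays low in Map205, at 4.50 against 3.65, and Pcd was lower, at 7.11 against 7.89. Map205 thus had the sharpest classes and hardly any alike probe sets, 1 in all. GCS1, with 20 low arrays, had 0, whereas 1626604_at, also with 20, had 38.

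Around CG10527 the most alike were Acox57D-p, CG9344 and an unnamed probe set, with shares of 0.563, 0.558 and 0.545. CG9344, 24 genes away, was higher on the arrays low in CG10527, at 7.24 against 6.71, and so was CG15649, at 7.28 against 6.16. Of the 150 probe sets within 100 genes of CG10527 that are no members, 11 or 7.33% were alike to it, against 0 of 10799 on other arms. The neighbours therefore moved in both directions.

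P5CDh2 had 28 alike probe sets, of which 25 were placed, all on 3R. Of these 8 lay within 100 genes of it and 17 farther along the arm. The most alike were the mod(mdg4) member with 0.531, CG10177 with 0.491 and mod(mdg4) probe set 1639006_at with 0.459. CG10177, 240 genes away, was far higher on the arrays low in P5CDh2, at 7.65 against 4.10. The gene fzo, a mitofusin of the male germ line, was also higher there, at 6.59 against 5.67, and Burs, a subunit of the hormone bursicon, was lower, at 4.08 against 5.19.

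The lola member was most alike to Prx6c, a peroxiredoxin gene 16 genes away, which averaged 10.23 on the arrays low in lola and 5.81 on the others. CG1827 was alike to Prx6c too, at 9.84 against 5.91, and lola and CG1827 shared 15 low arrays, 65.2% and 68.2% of their classes. Naglu was most alike to CG32984 and to Peritrophin-15b, a gene of the gut lining matrix 8 genes away, which was higher on its low arrays (6.48 against 5.13). Rab3GAP1 was most alike to the odorant receptor gene Or22b, 3 genes away, at 3.37 on its low arrays against 2.74. With members left out, between 0% and 8.78% of the probe sets within 100 genes were alike to a member in these 13, and at most 0.0648% of those on other arms.

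**Figure D4:**
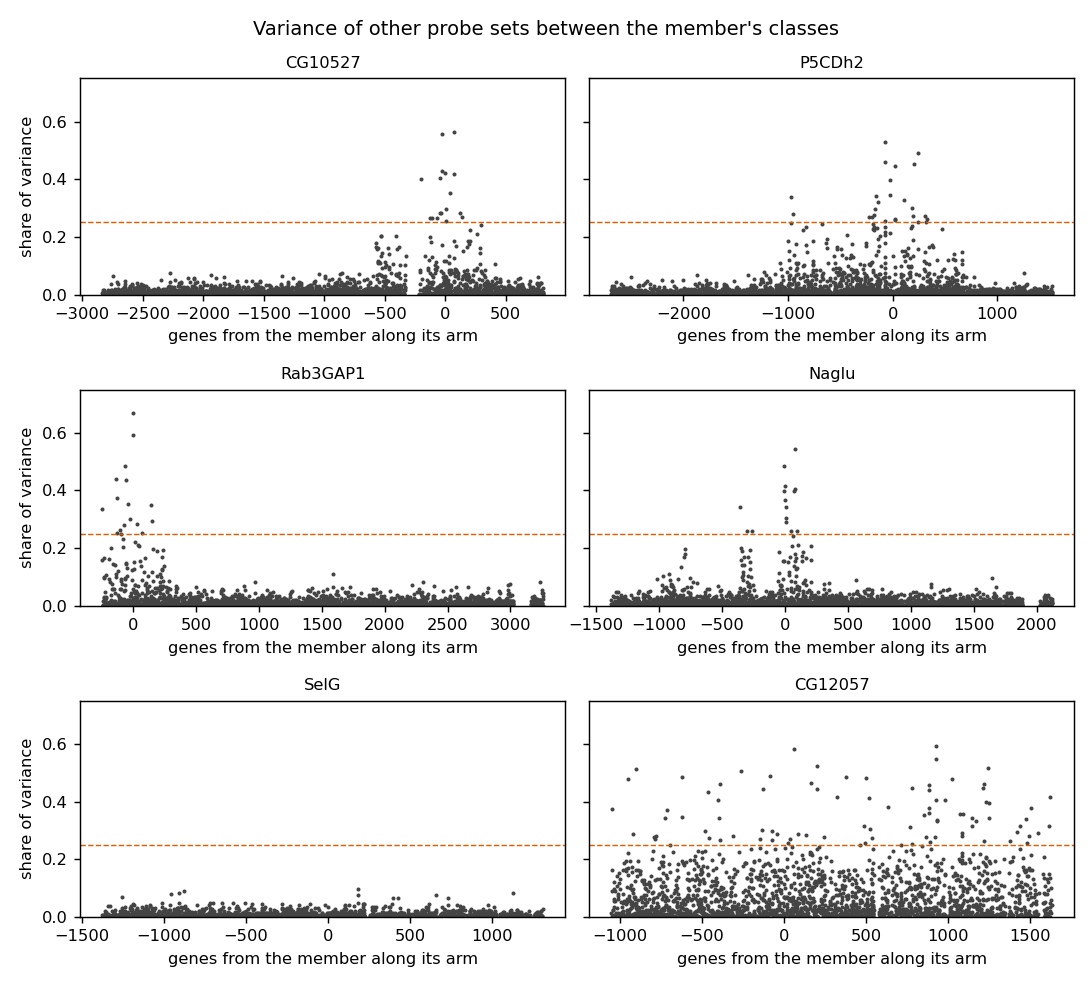
Share of the variance of each other placed probe set on the arm that lies between the member's low and high arrays (y), against the number of genes from the member (x), for 6 members, 1 point per probe set, with 0.25 as a dashed line. High points gather near CG10527, Rab3GAP1 and Naglu, and for P5CDh2 8 lie within 100 genes and 17 farther along the arm. They are missing on the arm of SelG and are scattered along the whole arm for CG12057.

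SelG stood apart. The gene table places it on X, where none of the 169 probe sets within 100 genes was alike to it. Its 5 alike probe sets all lay on 2L, within a stretch of 38 genes, and the 4 most alike among them were 2 probe sets of CG34367 (0.566 and 0.510), pie (0.414) and gny (0.370). All 4 were higher on the arrays low in SelG, the first CG34367 probe set at 5.89 against 5.03, and the fifth, loh, was lower, at 5.05 against 5.45. The numbers of alike probe sets, on X and elsewhere, were the same with the cut at the widest gap and when the 8 lines with the least correlated arrays were dropped. SelG did share low arrays with members placed on 2R, 16 of the 23 of lola (69.6%) and 13 of the 22 of CG1827 (59.1%). From the numbers of low arrays alone 7.21 and 6.89 would be shared. With 1626604_at it shared 13 of 20 (65%).

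Of the 4 members without a single symbol, 3 went together. The probe sets 1630728_a_at and 1636758_s_at were both low on 21 arrays, all of the 21 of the former and 95.5% of the 22 of the latter, and 1626604_at shared 17 and 18 of its 20 low arrays with them. CG1827 shared 16 of its 22 with 1626604_at. The placed probe sets alike to these 3 and to CG1827, members left out, lay on 2R from gene 87 to gene 888 of the order and on 2L from gene 2291 to gene 3499. The end of 2L and the start of 2R face each other across the centromere of the second chromosome. The fourth unnamed member, 1631224_at, was alike to 1 probe set, that of the esterase gene Est-P on 3L, which was higher on its low arrays (4.06 against 3.11).

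CG12057 and CG14125 had far more alike probe sets than the other members. They lie on X and 3L, but 31 arrays were low in both, 70.5% of the 44 of CG12057 and 62.0% of the 50 of CG14125. CG12057 had 652 alike probe sets and CG14125 had 418, or 3.47% and 2.23% of all, and they were spread over every arm. Near CG12057 8 of 177 placed probe sets were alike (4.52%), and on other arms 504 of 11355 (4.44%). With the cut at the widest gap, and members left out, these became 2 near the gene (1.13%) and 281 on other arms (2.48%). For CG14125 it was 2.21% near the gene and 2.33% on other arms. Farther along its own arm, 3L, there were 112 more. By arm, the placed probe sets alike to CG14125 numbered 115 on 3L and 114 on 3R, against 43 on 2L, 53 on 2R and 43 on X. Those alike to CG12057 numbered 103 on 2L, 136 on 2R, 108 on 3L, 156 on 3R and 87 on X, its own arm.

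Digestive proteases of the gut were lower where this pair was low. All 9 measured of 12 listed trypsin and Jonah protease genes had a lower mean on the low arrays, for either member. Jon25Bii, the gene that moved most, averaged 8.79 on the arrays low in CG12057 and 10.79 on the others, and alphaTry, a trypsin, 12.11 and 13.01. The summed signal of the 9 genes on the log2 scale ran from 12.20 to 15.44 on the arrays low in CG12057 and from 14.09 to 15.80 on the others, so the ranges overlapped. For CG14125 the ranges were 12.20 to 15.18 and 13.54 to 15.80. The lowest mean of a gut gene on low arrays was 8.26, for Jon99Ci on those of CG14125, and the lowest value of any probe set on any array was 1.93. In the other 18 members the summed gut signal differed between the classes by -0.32 to 0.11. All 9 genes were lower on the low arrays of Acox57D-p (sum -0.31) and Naglu (-0.22) too, but 1 of 9 on those of CG14352. The pair thus differed from these members in the size of the difference.

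Signs of RNA quality differed between the classes of these members as well. The difference between the 3' and 5' probe sets of the actin gene Act5C averaged 3.16 on the arrays low in CG12057 and 2.56 on the others, and 3.09 and 2.55 for CG14125. In the other members that difference changed by -0.15 to 0.25. The median correlation with other arrays averaged 0.978 on the arrays low in CG12057 and 0.983 on the others, a difference of -0.0051. For CG14125 it was 0.980 and 0.982, a difference of -0.0024, which lay within the -0.0033 to 0.00034 of the other 18 members. Other tissue lists differed too: on the arrays low in CG12057 the muscle sum was higher by 0.44 (8 of 9 genes), accessory gland by 0.41 (10 of 10), yolk and eggshell by 0.38 and testis by 0.20. For CG14125 these were 0.22, 0.27, 0.24 and 0.21. The sum of the 3 immune genes was higher by 0.12 for CG12057 and 0.20 for CG14125. The eye sum differed by -0.07 and -0.05, with 2 of 4 eye genes lower in each. The part of tissue content and RNA quality in the classes of CG12057 and CG14125 was not tested. Without the 8 lines of lowest array correlation the summed gut signal was lower by 0.99 and 0.97 on the log2 scale, against 1.06 and 1.03 over all arrays.

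**Figure D5:**
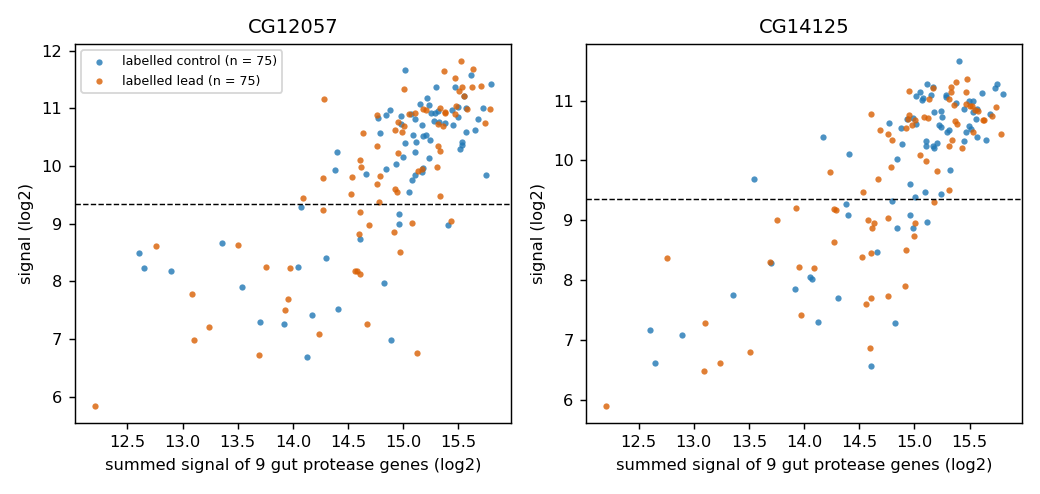
Signal of CG12057 (left) and CG14125 (right) on the log2 scale (y) against the log2 of the summed signal of 9 gut protease genes (x), 1 point per array, for 75 arrays labelled control and 75 labelled lead, with the class cut as a dashed line. Arrays below the cut reach down to 12.20 in summed gut signal, and those above it stay at or above 13.54.

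In the remaining members the tissue lists differed between the classes to varying degrees. Between low and high arrays the summed testis signal differed by -0.06 to 0.13, accessory gland by -0.14 to 0.19, eye by -0.16 to 0.20 and muscle by -0.15 to 0.39 over the 18 members. The yolk and eggshell sum differed by -0.45 to 0.84, the latter for Rab3GAP1, and the 3 immune genes by -0.47 for Naglu, lower in all 3, to 0.39 for 1631224_at. The part of these tissues in the classes was not tested.

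Genes listed with the 3 clearest members had little of their variance between the members' classes. Of 16 listed genes of proline metabolism and aldehyde oxidation 12 were measured, and the 11 besides P5CDh2 had at most 0.0198 of their variance between the arrays low and high in P5CDh2. P5CDh1, the enzyme of the same step, averaged 9.15 on the low arrays and 9.16 on the high arrays, and slgA, the proline oxidase that acts before it, 9.37 and 9.33. The largest difference was that of Oat, ornithine aminotransferase, at -0.25.

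Of 15 microtubule and mitotic genes 11 were measured, and the 10 besides Map205 had at most 0.0327 of their variance between its classes. The microtubule polymerase msps averaged 8.57 on both classes, and ncd, a minus-end motor, 6.15 on the low and 6.31 on the high arrays. Of 14 juvenile hormone and farnesoic acid genes 9 were measured, and the 8 besides CG10527 had at most 0.0409, led by Kr-h1, a hormone response gene, at 7.83 against 7.66. In these lists 0 genes passed between the labelled diets and 0 for the line effect.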

How the data were processed

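Expression was measured on Affymetrix arrays, 1 per line and diet. The authors deposited a table of 18952 probe sets whose values lie on a scale read here as log2. No source used here states the log base, the software or the normalization. The 183 array control probe sets were left out. Probe sets took their names from the platform annotation, and 13543 with 1 symbol had a place in the RefSeq gene order of Release 6 plus ISO1 MT, used for order alone. Diet was tested in limma 3.58.1 (R 4.3.3) with line as a block, the line effect by limma's F-test, and the line number series on line means, with Benjamini-Hochberg adjustment over 18769 probe sets and a threshold of 0.05. The tests were checked on simulated data. Other work used Python 3.11.15. List sums are the log2 of summed linear signal.

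The members and lists were chosen with earlier results of these data known. Text names the 3 markers, the members with the largest differences, variance shares or smallest p, adjacent members, edge cases and the 3 probe sets most alike to each marker. Further genes (Prx6c, CG15649, fzo, Burs and those beside the other members) and the gut list comparison were chosen after their values were seen. The 3 members set apart in the count of alike probe sets were also chosen with those values seen. Line numbers pair the arrays by label. After removal of diet means, same-line arrays correlated at -0.355 to 0.640, and 45.3% passed 0.1 against 34.5% of other pairs. Alternatives changed thresholds, scaling, arrays and lines. P-values for diet and for the response by line series rest on the spread over lines of lead minus control. Those for the line number series rest on the spread of line means, and those for the line effect on the spread between arrays of a line. A line has 1 array per diet, and the number of arrays limits the precision.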

Additional observations from a re-analysis of the deposited data

How the results depend on the processing

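The diet comparison gave 0 calls under every alternative run, and without the replicate block, that is without pairing the arrays of a line, it also gave 0. The count of 2 probe sets called for the line effect was 0 at an adjusted p under 0.01, after centring each array on its median, when the 8 lines with the least correlated arrays were dropped, and in the lines above 200, and 1 among probe sets above the median signal and in lines 1 to 100. The 20 members became 58 with a variance share over 0.70 and 46 from the control arrays alone, of which 17 were shared with the 20. CG12057 and CG14125 were lost, with CG14352, lola and CG1827, at a share over 0.80, and with lola from the lead arrays alone. CG14125 was also lost, with CG14352, under quantile normalization, and CG12057 when the 8 lines with the least correlated arrays were dropped. The diet difference turned to -0.034 for Map205 in lines 1 to 100, and in the lines above 200 to 0.14 for CG10527, 0.081 for P5CDh2 and 0.12 for GCS1. The correlation of control and lead values turned to -0.056 for P5CDh2 without the 8 lines, to -0.061 in lines 1 to 100, and to -0.022 for CG12057 in the lines above 200. The cause was not tested. None of these differences was past the threshold in any setting. In alternatives added after seeing the data, the probe sets on other arms alike to CG12057 fell from 504 to 281 with the cut at the widest gap. The array depth is unknown, and 1 array per line and diet limits what can be said of a line.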
